A study of Mus musculus with 4 samples.

Results

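The replication-dependent histone genes are the genes of the mouse histone clusters, taken as the genes whose symbols begin with Hist1h, Hist2h, Hist3h or Hist4h. They were 70 of the 55418 genes in the table, and each had at least 1 count in at least 1 library. By the histone they encode, 6 were linker histone H1 genes, 20 were H2A, 19 H2B, 12 H3 and 13 H4 genes. RNA came from mouse E14 ESCs grown on gelatin in serum with LIF, the cytokine that keeps ESCs undifferentiated, in 2 groups of 2 libraries. WT ESCs were compared with Pim3-/- ESCs, in which Pim3 had been knocked out by CRISPR/Cas9 with sgRNAs against its exons 4 and 6. Pim3 encodes a serine/threonine kinase. The WT libraries came from 2 biological samples and the Pim3-/- libraries from 2 different clones, so a difference between the Pim3-/- replicates is also one between clones. Which clone is which replicate number is not given in the sources used here, and with 1 library of each, clone and library cannot be told apart.

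Replication-dependent histone genes supply the core histones H2A, H2B, H3 and H4, around which DNA is wrapped in nucleosomes, and the linker histone H1 that binds between nucleosomes. Their mRNAs are made in S phase, when DNA is copied, and are the animal mRNAs known for ending in a conserved stem-loop instead of a poly(A) tail. The stem-loop is bound by SLBP and cut downstream with the help of the U7 snRNP, and the mRNAs are degraded when DNA synthesis stops. A kit for mRNA was used here, which selects poly(A) tails, so the counts describe the part of these transcripts that entered such libraries and not the whole histone mRNA pool. Some histone genes are known to also make polyadenylated transcripts, in particular in cells that have stopped dividing.

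In GENCODE M21, the annotation of GRCm38, all 70 genes were found, 67 as protein-coding genes and 3 as pseudogenes (Hist1h2aj, Hist1h2al and Hist3h2bb-ps). The Hist1 cluster held 56 genes on chromosome 13, and 55 of them lay between 21715763 and 23934851, with Hist1h2al apart. The Hist2 cluster held 10 genes on chromosome 3, the Hist3 cluster 3 genes on chromosome 11, and Hist4h4 was alone on chromosome 6. Of the 70 genes, 65 were annotated with 1 exon. Read sharing limits the values of single genes, since 36 of the 70 shared at least 50% of their 50-base stretches with other genes, 26 overlapped another gene, and the use of strand and the treatment of reads with several locations are not given in the sources used here.

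The 3′ stem-loop of 16 bases, a stem of 6 base pairs with a loop of 4 bases, was found in 46 genes, from 22 to 59 bases after the stop codon. It came in 8 versions. The most frequent, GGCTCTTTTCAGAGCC, was present in 26 genes of H1, H2A, H2B and H3, while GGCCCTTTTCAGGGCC was present in 7 genes, all of them H4 genes. The windows below are shown because they carry the element by which these mRNAs are known and cover genes that the results turn on, with the stem-loop in capitals and 5 bases on each side, 5′ to 3′ on the strand of the gene.
Hist1h1c: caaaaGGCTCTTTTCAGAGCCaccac
Hist1h1d: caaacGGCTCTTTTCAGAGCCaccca
Hist3h2a: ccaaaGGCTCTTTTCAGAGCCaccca
Hist1h3e: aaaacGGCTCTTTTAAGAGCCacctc
Hist1h3g: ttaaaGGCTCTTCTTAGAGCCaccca
Hist1h4i: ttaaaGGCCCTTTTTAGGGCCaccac
Hist4h4: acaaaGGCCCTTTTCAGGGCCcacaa

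In GRCm38 the stem-loops in capitals lie at Hist1h1c chr13:23739512-23739527 (+), Hist1h1d chr13:23555787-23555802 (+), Hist3h2a chr11:58955172-58955187 (+), Hist1h3e chr13:23561903-23561918 (-), Hist1h3g chr13:23535889-23535904 (+), Hist1h4i chr13:22040966-22040981 (-) and Hist4h4 chr6:136803998-136804013 (-), each in the 3′ UTR. Hist1h1c, Hist1h1d and Hist3h2a carried the same 16 bases. Of these, Hist1h1c was at a near level in all libraries, Hist1h1d was highest in Pim3-/- replicate 1, and Hist3h2a was lower in both Pim3-/- libraries. An annotated 3′ end more than 150 bases after the stop codon was present in 27 genes, among them 23 with a stem-loop, and 15 of the 27 had a polyadenylation signal (AATAAA or ATTAAA) in the last 50 bases, as did 50.2% of 58797 protein-coding transcripts. Of the 27 genes with a shorter 3′ end, 23 had a stem-loop and 2 a polyadenylation signal. For 13 protein-coding genes the annotation gave no sequence after the stop codon.

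The libraries held 22029427 to 25668307 counts. Histone cluster genes took a small part of them, with 3689 and 3768 counts in WT and 6995 and 3451 counts in Pim3-/- replicates 1 and 2. Counts were scaled by edgeR's TMM factors and are given below as CPM on that scale (counts per 1e6 of the scaled library), in which 3 counts are 0.112 to 0.157 CPM. The tested histone genes had a median level of 1.21 CPM, where the median over all tested genes was 11.5 CPM. Of the 70 genes, 52 passed the filter on low counts and were tested, and 18 did not, 3 of them (Hist1h2aa, Hist1h2ba and Hist2h2ab) at 0 counts in both WT libraries. Pim3 itself had 4392 and 4953 counts in WT libraries, against 4970 and 4804 in Pim3-/-, and since mutations at sgRNA sites need not lower the count of a gene, it does not check the labels. Among 12 ESC markers, such as Pou5f1, the summed level was 11489 and 10410 CPM in WT and 7620 and 7445 CPM in Pim3-/-, so ESC markers were present in all 4 libraries.

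A few genes supplied most of the histone counts. Hist1h1c (chr13:23738808-23740367), which encodes the linker histone H1.2, was the highest both in counts and per length, with 1220 and 1338 counts in WT against 1348 and 1450 in Pim3-/-, or 39.4 CPM per kilobase of exon in WT. Hist1h2bc (H2B), Hist3h2a (H2A) and Hist1h1c together made up 59.2% and 63.6% of the histone counts in WT and 36.6% and 61.2% in Pim3-/- replicates 1 and 2. Per kilobase, Hist1h2bc had 17.6 CPM in WT, followed by Hist3h2a with 13.2 CPM, Hist1h2af with 12.9 CPM and Hist3h2ba with 10.2 CPM. Hist1h2bc has an annotated spliced transcript and no stem-loop was found in the 150 bases searched. Hist1h2af, an H2A gene, shares 94.0% of its 50-base stretches with other genes, so its level and its place in this order are uncertain.

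The Pim3-/- libraries differed from each other at these genes more than the groups did. Summed over all 70 genes, the level was 193 and 166 CPM in WT, 262 CPM in Pim3-/- replicate 1 and 134 CPM in replicate 2. The groups overlapped, with means of 180 CPM ± 18.5 (SD, n = 2) in WT and 198 CPM ± 90.7 (SD, n = 2) in Pim3-/-. Replicate 1 was 1.96-fold above replicate 2 (95% interval 1.88 to 2.04, exact binomial, counting error only). Without the 3 genes with the most counts, the ratio between the Pim3-/- replicates was 3.20 (3.01 to 3.41), with 78.6, 60.5, 166 and 51.9 CPM in WT 1, WT 2, Pim3-/- 1 and Pim3-/- 2. The WT libraries thus lay between the Pim3-/- libraries on this scale. As a share of library totals, where no TMM factor enters, these genes took 65.0 and 53.4 counts per 1e6 in WT, 194 in Pim3-/- replicate 1 and 60.7 in replicate 2, so replicate 1 stayed above WT while replicate 2 moved into the WT range.

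**Figure D1:**
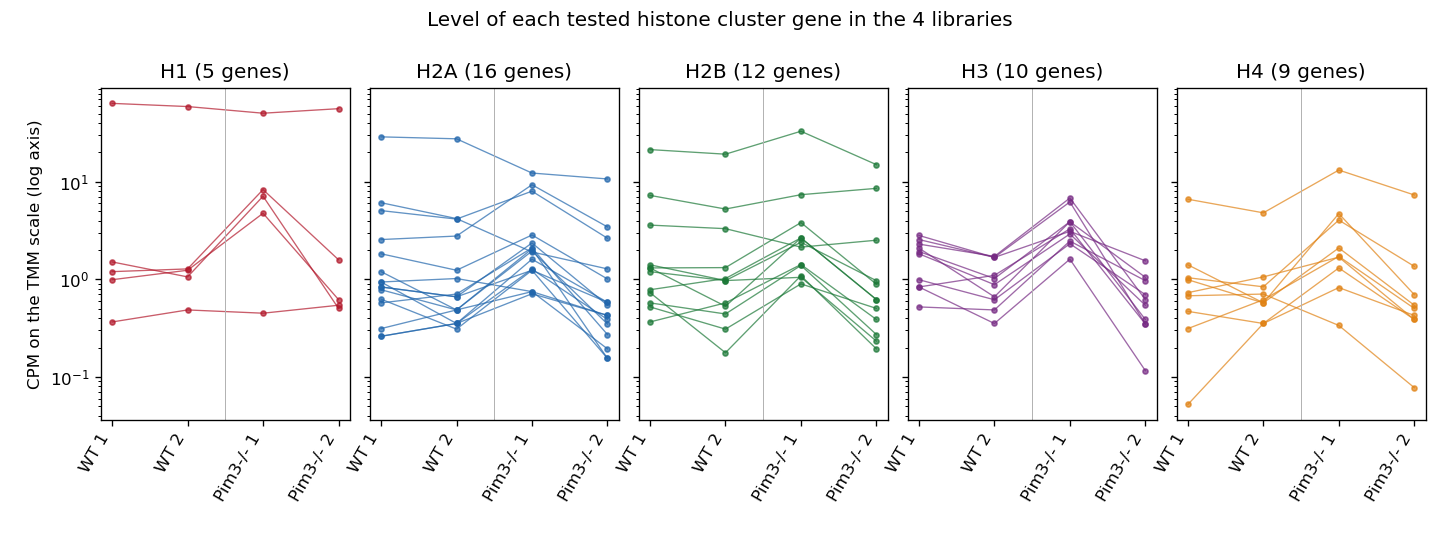
Level of the 52 tested histone cluster genes in each library, in CPM on the TMM scale on a log axis, in 1 panel per histone; each line joins the values of a gene. Most lines peak in Pim3-/- 1 and fall to or below the WT levels in Pim3-/- 2, while the highest lines of H1 and H2A, Hist1h1c at 63.7, 59.1, 50.5 and 56.2 CPM and Hist3h2a at 28.9, 27.6, 12.3 and 10.7 CPM, do not.

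Of the 52 tested genes, 42 had their highest level in Pim3-/- replicate 1, against 26.3% of all 18444 tested genes. At least 2-fold higher there than in replicate 2 were 41 of the 52, against 5.35% of all tested genes. None was at least 2-fold lower, against 5.67% of all tested genes. The median log2 ratio of replicate 1 to replicate 2 was 1.82 for the histone genes and 0.04 for all tested genes. Between the WT libraries the medians of the log2 ratio of replicate 1 to replicate 2 were 0.33 and 0.00. Low counts scatter more, and among tested genes under 5 CPM the 2-fold difference was present in 11.2%, against 40 of the 47 histone genes at that level. In 24 of the 52 genes replicate 1 lay above both WT libraries and replicate 2 below both, against 5.24% of all tested genes. Under 5 CPM this was so in 23 of 47 histone genes, against 5.29% of tested genes at that level. With library totals in place of TMM scaling, it was so in 17 of the 52, against 6.08%. Over all 70 genes, the untested ones included, 57 had their highest level in replicate 1, while the share of 26.3% above is over tested genes only. The Pim3-/- libraries are 1 sample each, so their difference has no replicate check, and these shares describe the libraries.

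**Figure D2:**
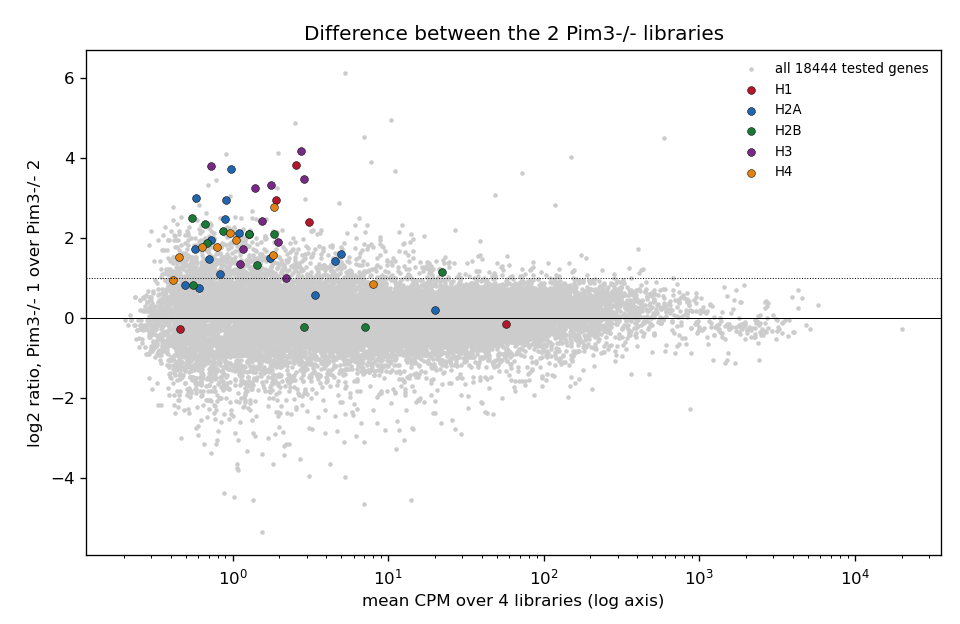
Log2 ratio of Pim3-/- 1 to Pim3-/- 2 against the mean CPM of the 4 libraries (log axis), for all 18444 tested genes in grey and for histone cluster genes in colour; the dotted line marks a 2-fold difference. Of the 52 histone cluster genes 41 lie on or above it, and of the 5 above 5 CPM only Hist1h2bc does.

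Among the sums of the 5 histones, that of H3, the core histone that carries many of the known histone marks, had the largest ratio between the Pim3-/- libraries when Hist1h1c is counted in H1 (without it, the H1 ratio was 7.30). The H3 sum was 17.4 and 10.9 CPM in WT, 38.7 CPM in Pim3-/- replicate 1 and 6.83 CPM in replicate 2, a ratio of 5.67 (4.83 to 6.69) between the Pim3-/- libraries. All 10 tested H3 genes were at least 2-fold higher in replicate 1. Hist1h3e had 54 and 38 counts in WT, 166 in Pim3-/- replicate 1 and 9 in replicate 2. Hist1h3g had 44, 39, 182 and 16 counts in the same order. In both genes replicate 1 was the highest library and replicate 2 the lowest. For H4, which shares the nucleosome core with H3, the sum was 13.1 and 10.6 CPM in WT and 32.0 and 12.4 CPM in Pim3-/-, a ratio of 2.58 (2.27 to 2.95). On the TMM scale, the H4 sum of Pim3-/- replicate 2 lay within the WT range and that of replicate 1 above it. As a share of library totals, the H4 sum was 10.8 and 9.39 counts per 1e6 in WT. It was 37.3 and 14.5 counts per 1e6 in Pim3-/- replicates 1 and 2, so both lay above WT on that scale.

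H2A and H2B, which pair with each other in the nucleosome, gave ratios of 2.22 (2.01 to 2.44) and 2.01 (1.85 to 2.19) between the Pim3-/- replicates. The H2A sum was 52.4 and 46.1 CPM in WT, 52.0 CPM in Pim3-/- replicate 1 and 23.4 CPM in replicate 2. The H2B sum was 41.4 and 35.4 CPM in WT, 63.5 CPM in replicate 1 and 31.5 CPM in replicate 2. On the TMM scale, the H2A sum of replicate 1 was therefore at the WT level, with Hist3h2a lower in both Pim3-/- libraries. The H2B sum was above WT in replicate 1 and below it in replicate 2 on that scale. Taken as a share of library totals, it was 34.2 and 31.2 counts per 1e6 in WT. In Pim3-/- replicates 1 and 2 it was 74.0 and 36.9 counts per 1e6, so both lay above WT. As a share of library totals, the H2A sum was 43.4 and 40.6 counts per 1e6 in WT. It was 60.6 counts per 1e6 in Pim3-/- replicate 1, above WT, and 27.4 in replicate 2, below WT. By cluster, the Hist1 and Hist2 genes had ratios of 2.10 (2.01 to 2.20) and 2.23 (1.92 to 2.59). The Hist3 genes had 36.3 and 32.9 CPM in WT and 19.7 and 19.3 CPM in Pim3-/-, a ratio of 1.02 (0.901 to 1.16) between the Pim3-/- replicates.

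**Figure D3:**
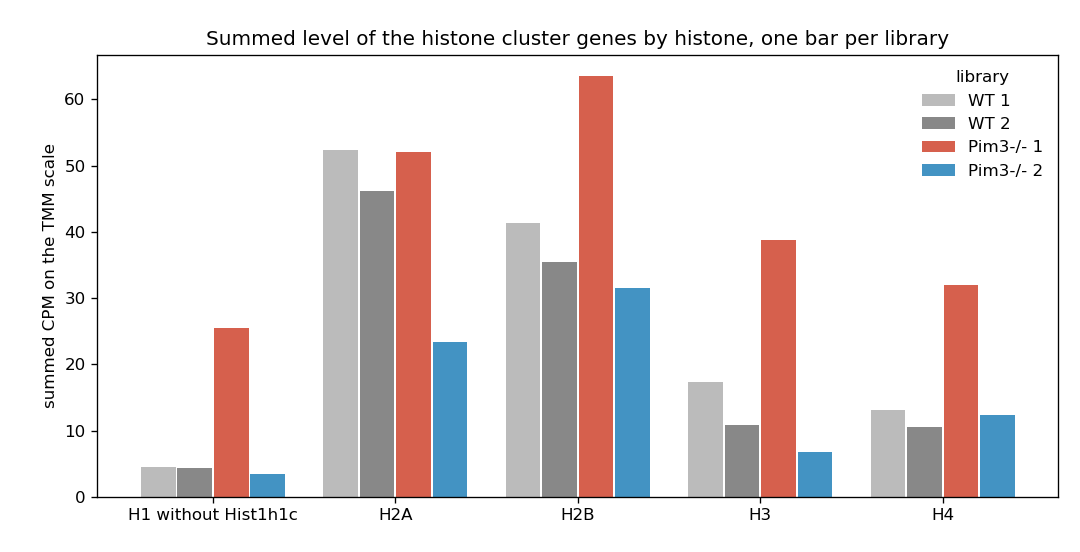
Summed level of the histone cluster genes of each histone in CPM on the TMM scale, with 1 bar per library and the vertical axis from 0; Hist1h1c is left out of H1. The Pim3-/- 1 bar is the tallest for H1 (25.5 CPM), H2B (63.5 CPM), H3 (38.7 CPM) and H4 (32.0 CPM), and for H2A it is level with WT 1.

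The linker histone genes did not all behave alike. Hist1h1c was near the same level in all libraries, at 61.4 CPM ± 3.27 (SD, n = 2) in WT and 53.4 CPM ± 4.06 (SD, n = 2) in Pim3-/-, with a log2 fold change of -0.20 ± 0.16 (SE) and an edgeR adjusted p = 0.356. The other H1 genes together had 4.54 and 4.37 CPM in WT, 25.5 CPM in Pim3-/- replicate 1 and 3.49 CPM in replicate 2, a ratio of 7.30 (5.85 to 9.20). Hist1h1a (H1.1) had 29 and 24 counts in WT, 190 in replicate 1 and 13 in replicate 2. Hist1h1b (H1.5) had 9, 7, 129 and 6 counts in the same order and was not tested. Both were high in a single library, and Hist1h1a, with a log2 fold change of 1.57 ± 0.96 (SE), did not pass the test (edgeR adjusted p = 0.234). Hist1h1d (H1.3) had 23, 29, 222 and 41 counts, so that both Pim3-/- libraries lay above WT, and Hist1h1e (H1.4) had 19, 28, 127 and 16 counts. Hist1h1t, the testis-type H1 gene, had 7, 11, 12 and 14 counts and did not share the peak in replicate 1. Hist1h1a and Hist1h1b shared no 50-base stretch with other genes.

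The promoters of Hist1h1a to Hist1h1e are shown because the genes lie in the same cluster and Hist1h1c did not share the peak of the others in Pim3-/- replicate 1. Hist1h1t, which did not share it either, is not shown. Each run is the 130 bases before the annotated start in RefSeq, build GRCm38.p6, 5′ to 3′ on the strand of the gene. Capitals mark 3 motifs that were searched on both strands. They are the letters AAACACA, known from H1 promoters, then the box with the letters CCAAT, and last the TATA element, taken as TATAAA in a first form and as TATATA in a second, which can overlap.
Hist1h1a: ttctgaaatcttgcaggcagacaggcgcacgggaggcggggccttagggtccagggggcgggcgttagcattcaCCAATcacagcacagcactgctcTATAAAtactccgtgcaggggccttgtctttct
Hist1h1b: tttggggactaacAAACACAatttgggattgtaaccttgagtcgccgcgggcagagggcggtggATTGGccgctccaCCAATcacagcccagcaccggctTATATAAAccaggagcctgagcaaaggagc
Hist1h1c: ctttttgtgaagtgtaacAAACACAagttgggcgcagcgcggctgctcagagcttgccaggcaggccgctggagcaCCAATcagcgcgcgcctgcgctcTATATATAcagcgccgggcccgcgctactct
Hist1h1d: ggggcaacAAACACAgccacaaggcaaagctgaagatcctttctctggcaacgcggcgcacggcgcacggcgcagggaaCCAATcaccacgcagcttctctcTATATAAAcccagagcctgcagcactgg
Hist1h1e: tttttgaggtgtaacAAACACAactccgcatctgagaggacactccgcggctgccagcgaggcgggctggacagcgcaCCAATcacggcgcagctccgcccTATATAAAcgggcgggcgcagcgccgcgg

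Their positions are Hist1h1a chr13:23763538-23763667 (+), Hist1h1b chr13:21780626-21780755 (-), Hist1h1c chr13:23738677-23738806 (+), Hist1h1d chr13:23554902-23555031 (+) and Hist1h1e chr13:23622559-23622688 (-). Promoters of 250 bases before to 50 bases after the start were matched for 61 of the 70 genes. CCAAT was present in 6 of 6 H1, 17 of 17 H2A, 16 of 16 H2B, 10 of 10 H3 and 3 of 12 H4 promoters, against 37.4% of 32851 promoters. AAACACA was present in 5 of 6 H1 promoters (all but Hist1h1a) and in 7.18% of all promoters. The octamer ATTTGCAT was present in 7 of 17 H2A and 6 of 16 H2B promoters, in no promoter of H1, H3 or H4, and in 1.74% of all promoters. The TATA element was present in 6 of 6 H1, 13 of 17 H2A, 10 of 16 H2B, 4 of 10 H3 and 8 of 12 H4 promoters, against 17.1% of all promoters. The promoter of Hist1h1c held the same kinds of motif as those of Hist1h1b, Hist1h1d and Hist1h1e, but not in the same forms. In the runs shown, its TATA element had the second form only, while those of the other genes held both forms. The run of Hist1h1b also had a further CCAAT on the other strand. Whether these differences bear on the levels was not tested.

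The Pim3-/- libraries came from edited clones, while the WT libraries came from biological samples that are not described as clones. Loss of Pim3 and derivation as a clone therefore cannot be told apart here. The comparison of Pim3-/- with WT ESCs thus asks which genes differ between these groups. In it, 2 of the 52 tested genes were downregulated, Hist1h2af and Hist3h2a, and 0 were upregulated in edgeR's quasi-likelihood model with a threshold of 0.05 on the adjusted p (p-values were adjusted by Benjamini-Hochberg over all tested genes). Of all tested genes, 16.2% were downregulated and 17.6% upregulated by the same rule, and with a change of at least 3-fold 1.38% and 8.47%. At an unadjusted p under 0.05, 3 histone genes were lower and 6 higher, and the Wald test of DESeq2, which gave 60 of these genes an adjusted p, called 2 lower and 3 higher, against 16.9% and 12.9% of all genes. Over the 52 genes the log2 fold changes ran from -1.71 to 1.99. The median log2 fold change of the histone genes was 0.73, against 0.07 for all tested genes, and 44 of 52 lay above 0. With library totals in place of TMM scaling, 2 were downregulated and 7 upregulated, against 5.92% and 35.8% of all tested genes. Without WT replicate 1 the shares of all tested genes called fell to 1.88% lower and 2.03% higher, and without WT replicate 2 to 5.35% and 2.95%, so a call lost in these fits need not mean a smaller change. With no filter 2 histone genes were downregulated and 2 upregulated of 70, against 9.47% and 9.1% of all genes, and with at least 10 counts in every library 2 and 1 of 30, against 15.7% and 16.9%. With the replicate number as a block it was 2 and 3, against 17.7% and 18.5%, and with DESeq2 size factors 2 and 0, against 17.3% and 16.2%. Both Pim3-/- libraries lay above both WT libraries in 9 of the 52 genes and below both in 6, against 38.3% and 34.2% of all tested genes. With Pim3-/- replicate 1 left out, the median of the histone genes turned to -0.54, against 0.06 for all genes tested in that fit. With Pim3-/- replicate 2 left out, the median was 1.45, against 0.05 for all genes tested. There a gene can pass the filter through Pim3-/- replicate 1 alone. The median of 1.45 is thus over 63 histone genes, some of them tested only because they were high in that library. In these fits a group holds a single library, which is assumed to vary as the WT libraries do.

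Hist3h2a, an H2A gene of the Hist3 cluster (chr11:58954685-58956830, GRCm38, plus strand), was the clearest downregulated gene. It had 553 and 625 counts in WT against 329 and 276 in Pim3-/-, so the groups did not overlap. This was 28.2 CPM ± 0.902 (SD, n = 2) against 11.5 CPM ± 1.15 (SD, n = 2), or 2.45-fold lower (log2 fold change -1.29 ± 0.19 SE, edgeR adjusted p = 0.00521). Hist3h2a overlaps Trim17 and the gene model Gm44313, so part of its reads may be theirs. Its neighbour Hist3h2ba (H2B) had 139 and 119 counts in WT against 197 and 221 in Pim3-/-, a log2 fold change of 0.35 ± 0.27 (SE), with an edgeR adjusted p of 0.343. Hist1h2af (H2A, chr13:23533906-23534304, plus strand) had 117 and 95 counts in WT against 51 and 33 in Pim3-/-, which was 3.21-fold lower (log2 fold change -1.68 ± 0.37 SE, edgeR adjusted p = 0.0144). Without WT replicate 1 neither call was made, at log2 fold changes of -1.31 for Hist3h2a and -1.45 for Hist1h2af (edgeR adjusted p of 0.0537 and 0.142).

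Nearest to the threshold on the higher side were Hist2h3c2, Hist1h1d and Hist2h2aa2. Hist2h3c2 (H3) had 10 and 11 counts in WT against 66 and 25 in Pim3-/-, a log2 fold change of 1.77 ± 0.58 (SE), with an edgeR adjusted p of 0.0501. Hist1h1d had a log2 fold change of 1.99 ± 0.71 (SE), with an edgeR adjusted p of 0.0628. Hist2h2aa2 (H2A) had 5, 8, 43 and 15 counts in WT 1, WT 2, Pim3-/- 1 and Pim3-/- 2. In all of these both Pim3-/- libraries lay above WT, with replicate 1 far above replicate 2. Hist2h2aa1 (49, 63, 249 and 89 counts), Hist1h4k (20, 19, 108 and 35 counts) and Hist1h4i (127, 109, 353 and 189 counts) had the same order, with adjusted p of 0.0731, 0.0738 and 0.0912 in edgeR. Hist2h2aa1 and Hist2h2aa2 share 100% of their 50-base stretches with other genes, Hist1h4k 71.5% and Hist2h3c2 63.5%. Their counts are therefore uncertain as values of single genes. Hist1h4i shares 28.9% and Hist1h1d 2.25%. On the lower side, Hist4h4 had 13, 16, 9 and 2 counts (edgeR adjusted p = 0.0899), Hist2h2be (H2B) 69, 75, 57 and 65 counts and Hist1h2ap (H2A) 18, 23, 20 and 5 counts. Hist2h2be shared no 50-base stretch with other genes, and its groups did not overlap. Among the genes highest per length, Hist1h2bc had 410, 435, 882 and 387 counts, a log2 fold change of 0.24 ± 0.34 (SE), and Hist1h2ae (H2A) 97, 94, 214 and 68 counts, a log2 fold change of 0.21 ± 0.49 (SE). Both had their highest level in Pim3-/- replicate 1, and neither passed the test, with adjusted p of 0.600 and 0.758 in edgeR.

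**Figure D4:**
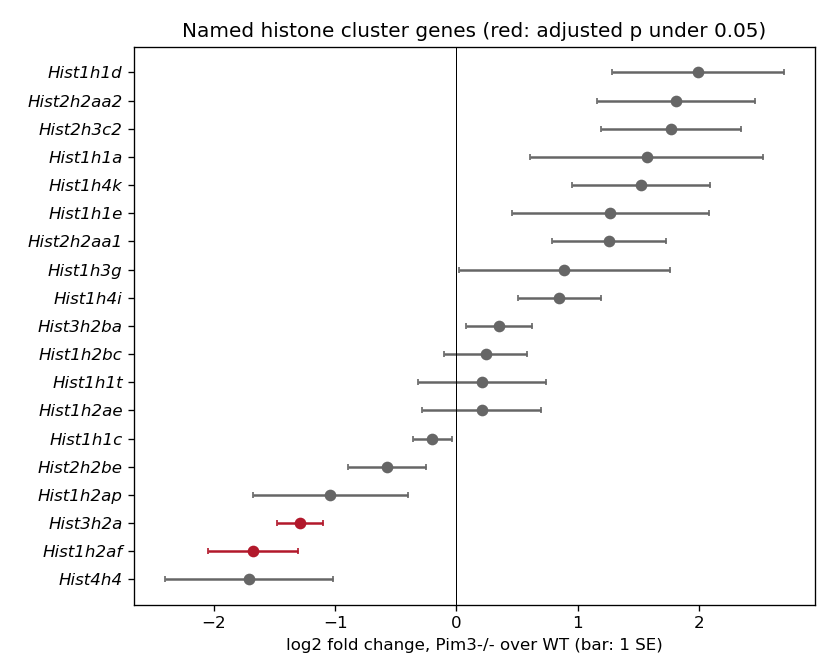
Log2 fold change of Pim3-/- over WT for the histone cluster genes named by rule and tested, with bars of 1 standard error; red points passed an adjusted p of 0.05 in edgeR. Only Hist1h2af (-1.68) and Hist3h2a (-1.29) are red, and the genes furthest to the right, such as Hist1h1d at 1.99, have wide bars.

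The genes were also grouped by their annotated 3′ end, where intervals again cover counting error only. The 27 genes with a 3′ end of more than 150 bases had 154 and 136 CPM in WT, 170 CPM in Pim3-/- replicate 1 and 114 CPM in replicate 2, a ratio of 1.49 (1.42 to 1.56). The 27 genes with a shorter 3′ end had 29.0, 22.9, 65.1 and 14.5 CPM, a ratio of 4.49 (4.01 to 5.03). Without Hist1h1c, Hist1h2bc and Hist3h2a the ratio of the longer group was 2.31 (2.13 to 2.51). Genes with a short annotated end thus had a larger ratio between these libraries in summed counts than genes with a longer end. The 13 protein-coding genes without annotated sequence after the stop codon had the largest, 5.45 (4.46 to 6.72). The type of 3′ end and the completeness of its annotation cannot be told apart here. The median log2 fold changes against WT were 0.56 for 24 tested genes with a longer end and 0.84 for 19 with a shorter end. Hist3h2a, the highest H2A gene, belongs to the longer group and Hist1h2af to the shorter.

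The counts at other genes whose RNAs are known to lack poly(A) tails were summed too. Whether reads at these genes came from the RNA without a tail or from a transcript overlapping the gene was not tested. The 171 genes of that kind, snoRNA, scaRNA and small nuclear RNA genes together with Rn7s1, Rn7s2, Rn7s6, Rn7sk, Rmrp, Rpph1 and Terc, summed to 423 and 363 CPM in WT, 321 CPM in Pim3-/- replicate 1 and 247 CPM in replicate 2. Of 91 tested, 13 were at least 2-fold higher in replicate 1 than in replicate 2. That difference was present in 5.35% of all tested genes and in 11.2% of those under 5 CPM. Against WT, 17 of the 91 were downregulated and 2 upregulated, where 16.2% and 17.6% of all tested genes were. The median log2 fold change was -0.48. As a share of library totals the sums were 350 and 321 counts per 1e6 in WT, 374 in Pim3-/- replicate 1 and 289 in replicate 2, so on that scale replicate 1 lay above WT. The 2 upregulated genes both peaked in Pim3-/- replicate 1. Rpph1, the RNA of ribonuclease P, had 88 and 35 counts in WT, 1103 in replicate 1 and 271 in replicate 2, and Terc, the telomerase RNA, had 6, 4, 75 and 17 counts. With library totals 9 genes of this list were downregulated and 13 upregulated, against 5.92% and 35.8% of all tested genes. Without WT replicate 1, 2 genes of this list were downregulated, without WT replicate 2 it was 3, and without Pim3-/- replicates 1 and 2 it was 39 and 30, where 1.88%, 5.35%, 27.5% and 25.3% of all genes were. Genes induced in 2-cell-like cells, such as those of the Zscan4 cluster, summed to 31.2 and 26.8 CPM in WT. Their sums were 277 CPM in Pim3-/- replicate 1 and 87.2 CPM in replicate 2. At least 2-fold higher in replicate 1 were 14 of 16, against the 5.35% and 11.2% above. Primitive endoderm markers summed to 329 and 321 CPM in the Pim3-/- libraries, against 49.2 and 61.7 CPM in WT. Of 10 tested, 3 were at least 2-fold higher in replicate 1 than in replicate 2, so the near sums do not hold for each marker. The part of these RNAs and cells in the histone values was not tested. In bulk RNA, fewer cells of a type and less RNA per cell cannot be told apart.

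S phase genes encode the proteins that copy DNA, and many of their mRNAs are known to peak close to S phase. All 40 in the list were below 0 in log2 fold change, 23 of them passed as downregulated and 0 as upregulated (all tested genes 16.2% and 17.6%), and the median was -0.80. Their sum was 9185 and 9145 CPM in WT, 6537 CPM in Pim3-/- replicate 1 and 4595 CPM in replicate 2. Replicate 1 was thus above replicate 2 in both groups of genes, but in S phase genes it lay below WT on the TMM scale and in histone genes above it. As a share of library totals, S phase genes took 7596 and 8068 counts per 1e6 in WT, 7621 in replicate 1, which is between the WT libraries, and 5377 in replicate 2. Downregulated S phase genes numbered 14 with library totals, 8 without WT replicate 1, 14 without WT replicate 2 and 36 without Pim3-/- replicate 1, where 5.92%, 1.88%, 5.35% and 27.5% of all genes were downregulated. Pcna, the clamp that holds DNA polymerase on DNA, was 3.18-fold lower (log2 fold change -1.67 ± 0.21 SE, edgeR adjusted p = 0.00412), and Tk1, which salvages thymidine, was 3.43-fold lower (edgeR adjusted p = 0.00828). Tyms, which makes thymidylate, was 2.94-fold lower (edgeR adjusted p = 0.0208), a call lost without WT replicate 1 (0.0593).

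**Figure D5:**
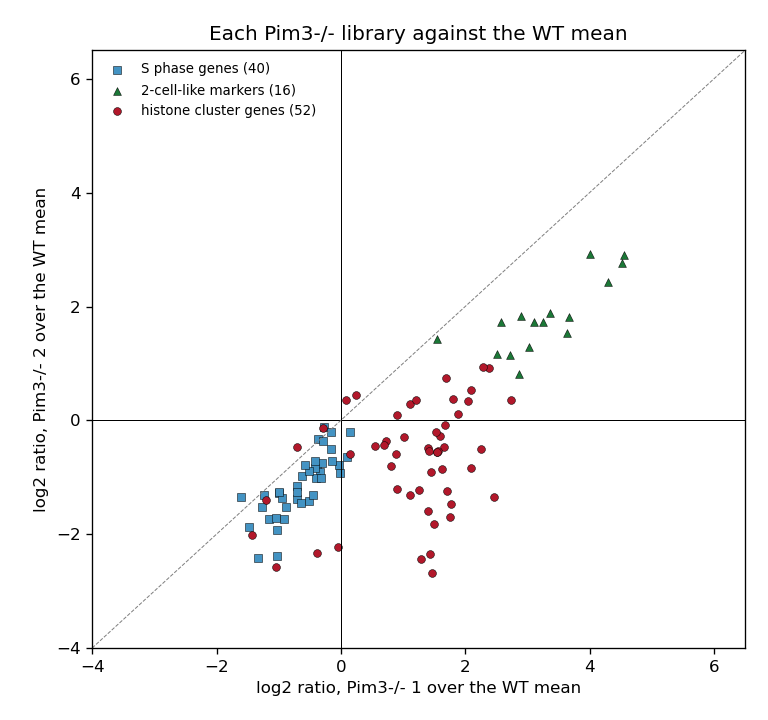
Log2 ratio of each Pim3-/- library to the WT mean, with Pim3-/- 1 on the horizontal and Pim3-/- 2 on the vertical axis, for the 52 tested histone cluster genes, 40 S phase genes and 16 markers of 2-cell-like cells; the dashed line marks equal values. Most histone genes lie right of 0 and below 0 (median 1.43 in Pim3-/- 1 and -0.53 in Pim3-/- 2), S phase genes lie mostly left of 0 and below it, and the 2-cell-like markers lie in the upper right.

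The list of 28 genes for the histone mRNA 3′ end, all tested, also held the cap-binding complex and general polyadenylation factors. Of these 28 genes, 13 were downregulated and 2 upregulated, with a median log2 fold change of -0.61, against 16.2% and 17.6% of all tested genes. The calls are therefore not all of factors particular to histone mRNA. With library totals 6 were downregulated and 3 upregulated (all genes 5.92% and 35.8%), and downregulated genes numbered 1 without WT replicate 1, 5 without WT replicate 2 and 22 without Pim3-/- replicate 1 (all genes 1.88%, 5.35% and 27.5%). Slbp, which encodes the protein that binds the stem-loop, had 182 and 184 CPM in WT, 97.6 CPM in Pim3-/- replicate 1 and 55.1 CPM in replicate 2, which was 2.40-fold lower (log2 fold change -1.26 ± 0.27 SE, edgeR adjusted p = 0.0128). Lsm10, a subunit of the U7 snRNP, had 25.3 and 20.3 CPM in WT and 10.3 and 7.60 CPM in Pim3-/- (log2 fold change -1.35 ± 0.24 SE, edgeR adjusted p = 0.00778). Both were lower in both Pim3-/- libraries. Snrpe, which encodes a core protein of snRNPs, was 2.52-fold lower (edgeR adjusted p = 0.00559). Without WT replicate 1 Slbp and Lsm10 were not called, at log2 fold changes of -1.33 and -1.23 (edgeR adjusted p of 0.0559 and 0.0784).

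The other core proteins of snRNPs in the list, Snrpb, Snrpd3, Snrpf and Snrpg, were downregulated too, at log2 fold changes of -0.85, -1.29, -0.93 and -1.26. Lsm11 and Zfp473 of the U7 snRNP, Casp8ap2, Npat and Rnu7 did not pass the test. Lsm11 had 296 and 331 counts in WT against 367 and 401 in Pim3-/- (log2 fold change -0.04), Zfp473 had a log2 fold change of -0.40, Casp8ap2 of -0.37 and Npat, which encodes the cyclin E-CDK2 target that drives histone gene transcription, of -0.39. Rnu7, the gene of the U7 snRNA itself, had 55, 61, 37 and 8 counts (edgeR adjusted p = 0.0659). Mblac1 and Sympk were upregulated, at 2.84-fold and 1.79-fold, the first at 9 and 14 counts in WT against 45 and 37 in Pim3-/-. Both calls were lost without WT replicate 1 (edgeR adjusted p of 0.326 and 0.236) and without WT replicate 2 (0.207 and 0.123), and that of Mblac1 also in the DESeq2 Wald test (0.129). Among 20 genes of histone gene transcription, 3 were downregulated, namely Cdk2 (log2 fold change -1.09), Nfyc (-0.84) and Ccna2 (-0.61), and 2 upregulated, namely E2f1 (1.03) and Cramp1l (0.59). These counts are no larger than the 16.2% and 17.6% of all tested genes. Without WT replicate 2 all of these calls but that of Cdk2 were lost. Without WT replicate 1 no gene of this list passed in either direction, without Pim3-/- replicates 1 and 2 it was 12 and 8 downregulated genes (all genes 27.5% and 25.3%), and with library totals 1 was downregulated and 5 upregulated (all genes 5.92% and 35.8%).

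Of 21 genes that act in translation and decay of histone mRNA, 10 were downregulated and 1 upregulated (median log2 fold change -0.52), against 16.2% and 17.6% of all tested genes. With library totals it was 4 and 8 (all genes 5.92% and 35.8%), and downregulated genes numbered 3 without WT replicate 1 and 5 without WT replicate 2 (all genes 1.88% and 5.35%). The largest decreases were in Lsm7, Lsm3 and Lsm1, whose proteins form a ring on the 3′ end of mRNAs that are to be degraded, with log2 fold changes of -1.69, -1.36 and -1.31. Eri1, the exonuclease that trims histone mRNA, and Upf1, the helicase needed for its decay, had log2 fold changes of -0.47 and 0.07 and did not pass the test.

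Replacement histones are mostly made throughout the cell cycle from polyadenylated mRNAs, though not all genes of the list need follow this. Of 21 genes 13 were tested, of which 3 were downregulated and 1 upregulated, against 16.2% and 17.6% of all tested genes. Downregulated genes numbered 1 without WT replicate 1 and 7 without Pim3-/- replicate 1 (all genes 1.88% and 27.5%), and with library totals 2 were downregulated and 3 upregulated (all genes 5.92% and 35.8%). H2afz, which encodes H2A.Z, had 39414 and 40811 counts in WT against 14793 and 11681 in Pim3-/-, which was 3.83-fold lower (log2 fold change -1.94 ± 0.23 SE, edgeR adjusted p = 0.00361). H3f3a, a gene of H3.3, was 2.19-fold lower (edgeR adjusted p = 0.00767), while H3f3b, the other H3.3 gene, had a log2 fold change of -0.27 and did not pass. Cenpa, the centromeric H3, was 1.85-fold lower, and H2bfm was upregulated, with 12, 14, 73 and 35 counts. The calls of H3f3a, Cenpa and H2bfm were lost without WT replicate 1, as were those of Cenpa and H2bfm without WT replicate 2 and that of H2bfm without Pim3-/- replicate 1. H1f0 and H1fx, linker histone genes outside the clusters, had log2 fold changes of -0.39 and 0.30, and H2afx of -0.46, without passing the test. Per kilobase of exon, H2afz had 1087 CPM in WT, against 39.4 CPM for Hist1h1c, a comparison of polyadenylated mRNAs with mRNAs known mostly without tails.

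Histone chaperones carry histones to DNA, and 12 of 27 were downregulated and 2 upregulated, with a median log2 fold change of -0.57, against 16.2% and 17.6% of all tested genes. With library totals it was 4 and 5 (all genes 5.92% and 35.8%). No chaperone gene passed in either direction without WT replicate 1 (all genes 1.88% and 2.03%), and without WT replicate 2 it was 3 and 0 (all genes 5.35% and 2.95%). Hat1, the acetyltransferase of new H4, was 2.41-fold lower (edgeR adjusted p = 0.00683). Nasp and Asf1b, which bind H3 and H4, were 2.09-fold and 2.13-fold lower. Npm1 was 2.17-fold lower and Ubn1, a subunit of the H3.3 chaperone HIRA, 2.28-fold higher. Without WT replicate 2 the calls of Nasp, Npm1 and Ubn1 were lost and those of Hat1 and Asf1b kept. Chaf1a, the large subunit of CAF-1, had a log2 fold change of -0.03 and did not pass.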

How the data were processed

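RNA-seq of 2 WT and 2 Pim3-/- libraries was analysed. The authors deposited raw counts per gene for mm10 (GRCm38), made from poly(A)-selected, randomly primed libraries. The paper names Cutadapt and Hisat2, whereas the submitters' processing notes name Trim Galore, STAR and featureCounts. A table of transposable elements was not used. In edgeR 4.0.16, genes with low counts were removed by filterByExpr (count 10, total 15) and counts scaled by TMM factors and compared with the quasi-likelihood test, with Benjamini-Hochberg adjustment over 18444 genes, in R 4.3.3. DESeq2 1.42.0 served as an alternative. The edgeR test was tried on simulated counts in which only genes above 5 CPM were changed, and by the same amount in both Pim3-/- libraries. It therefore does not cover changes at the level of most histone genes here, as 47 of the 52 tested were under 5 CPM. No exact permutation p is given, since 2 libraries in each group allow none under 0.333. The WT libraries are 2 biological samples and the Pim3-/- libraries 2 clones, so p-values measure the spread between these.

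The members and gene lists were chosen with earlier results of these data known. Named members were the 10 highest per length, those called, the 3 nearest the threshold on each side and the H1 genes. In the other lists they were a fixed set of factors and up to 3 called genes with the largest changes. Sympk, Ccna2, Cramp1l, Cenpa, Hist1h3e, Hist1h2aa, Hist1h2ba, Hist2h2ab and Rnu7 were named after their values were seen. Stem-loops, 3′ ends and overlaps were read from GENCODE M21. Promoters came from RefSeq (GRCm38.p6).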

Additional observations from a re-analysis of the deposited data

How the results depend on the processing

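The count of 2 downregulated and 0 upregulated histone genes depended on the libraries used. With 1 library left out, the number downregulated ranged from 0 (without WT replicate 1) to 13 (without Pim3-/- replicate 1), the number upregulated from 0 to 40 (without Pim3-/- replicate 2), and the median log2 fold change from -0.54 to 1.45. Each of these fits leaves a single library in a group. Without Pim3-/- replicate 1, histone genes were not called lower more often than all tested genes. Without Pim3-/- replicate 2, some histone genes were tested only because they were high in Pim3-/- replicate 1. Over all genes tested, the median log2 fold changes of these fits were 0.06 and 0.05. Upregulated histone genes numbered 7 with library totals, 2 with no filter, 1 with at least 10 counts in every library and 3 in the DESeq2 Wald test. With the replicate number as a block, 3 were upregulated. The numbers did not pair the libraries: the differences between replicates 1 and 2 in WT and in Pim3-/- correlated at 0.0196 over 18444 genes, and with 2 pairs the block is a hint only. Library totals raised the median of all tested genes from 0.07 to 0.52, which turned the median of the histone transcription list to 0.13 and of replacement histones to 0.06 and moved the summed ratio of Pim3-/- to WT for genes with a longer 3′ end to 1.34. Without Pim3-/- replicate 1, Hist1h2bc, Hist1h2ae, Hist1h3g and Hist1h1a turned negative and passed the test, at log2 fold changes of -0.45, -0.82, -1.70 and -1.35, against 0.69, 0.79, 1.75 and 2.46 without Pim3-/- replicate 2. The cause was not tested.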
